A study of Drosophila melanogaster with 23 samples.

Results

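The inner surface of the insect midgut is covered by the peritrophic matrix, a sheet of chitin fibres and proteins that keeps food particles and microbes away from the epithelium. Peritrophins are the proteins that hold this sheet together, and they bind chitin through cysteine-rich domains that are also found in proteins of the cuticle and the tracheal lining. The genes described here are 7 uncharacterised Drosophila genes, CG10725, CG7298, CG7248, CG7252, CG7290, CG10140 and CG10154, which are predicted to encode proteins with such domains. They were listed by symbol. CG10725 and CG7298 were chosen by their measured values, a change with temperature that was large and different in the 2 sexes, and the other 5 were added as relatives. Of the 7 genes, 4 had a row among the 11152 features of the expression table (CG10725, CG7298, CG7252 and CG10140), and CG7248, CG7290 and CG10154 were not analysed here.

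Each RNA-seq library was made from a pool of 10 whole virgin flies of the w1118 strain, which carries a mutation in the white gene, and all groups shared this genotype. Males kept as adults at 18, 24 or 28 °C gave 4, 4 and 3 libraries, and females kept at the same temperatures gave 4 libraries each, so that 23 libraries fell into 6 groups. Flies were frozen at 45 days of age at 18 and 24 °C and at 35 days at 28 °C, so temperature and age cannot be told apart in any comparison with 28 °C. RNA came from the whole body, and a transcript can therefore come from any tissue. Levels are given in CPM (counts scaled to a common library total), scaled between libraries with TMM factors, and differences are log2 fold changes from edgeR's quasi-likelihood fit of the 6 groups, with p-values adjusted by the Benjamini-Hochberg method over all tested features and called below 0.01.

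Totals of expected counts per library lay between 17727137 and 23194619, and every male total was lower than every female total. Gut genes were well represented, with 42 of 46 listed digestive genes and all 12 listed gut regulators and markers in the table. Calls were frequent. Between 28 and 18 °C, 30% of 9698 tested features were called in males and 38% in females, and the difference of the change between the sexes was called for 20%.

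All 7 genes lie on chromosome arm 3L, in 3 places (positions from the BDGP6.54 annotation, which shares its coordinates with the dm6 build named in the labels). CG10725 (FBgn0036362) occupies 13437954 to 13439009 on the forward strand and has 4 exons with 876 exonic bases. It stands between CG10154, 817 bp before it, and CG10140, 307 bp after it, and both of these are on the reverse strand. CG10140 (FBgn0036363, 13439317 to 13440470, 4 exons, 969 exonic bases) is followed after 439 bp by CG14109. CG7298 (FBgn0036948) occupies 20202070 to 20203687 on the reverse strand, with 3 exons and 1323 exonic bases, between obst-F at 431 bp and CG7290 at 621 bp. CG7252 (FBgn0036226) occupies 11947675 to 11949248 on the forward strand, with 2 exons and 1514 exonic bases, and CG17826 follows at 590 bp. CG7248 lies at 11954083 to 11956780, next to obst-G. The 2 genes with large sex-dependent changes are therefore not neighbours. RSEM shares out reads that match more than 1 gene, but the 92 values of the 4 measured genes were all whole numbers.

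CG10725 was highest in females at 18 and 24 °C and lowest in females at 28 °C. The 4 male libraries had 52.4, 45.5, 69.4 and 43.8 CPM at 18 °C and 12.2, 36.0, 28.8 and 50.3 CPM at 24 °C, and the 3 male libraries at 28 °C had 20.6, 22.3 and 26.0 CPM. The 4 female libraries had 169.1, 155.7, 148 and 97.2 CPM at 18 °C, 121, 139, 123 and 111 CPM at 24 °C, and 12.5, 16.2, 16.3 and 20.3 CPM at 28 °C. In both sexes, every library at 28 °C was lower than every library at 18 °C, as was so for 29.1% of all tested features in males and 20.1% in females. In females the libraries at 28 °C were also below all those at 24 °C, as for 19.9% of features, whereas in males the ranges at 24 and 28 °C overlapped.

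**Figure D1:**
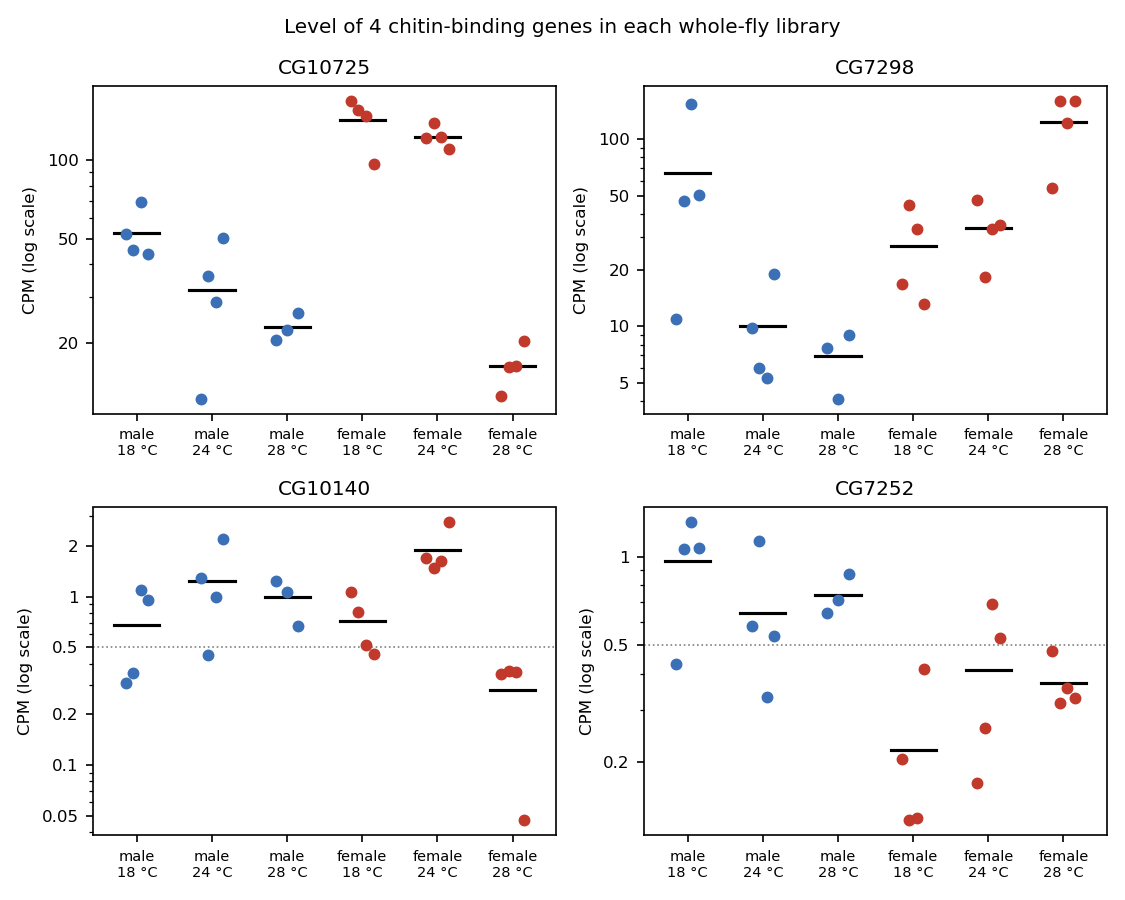
CPM on a log scale for each library (points) and the group mean (line) of CG10725, CG7298, CG10140 and CG7252, with males (blue) left of females (red) and temperatures from 18 to 28 °C within each sex. The dotted line in the lower panels marks 0.5 CPM, the minimum used for testing. At 28 °C CG10725 is at 20.6 to 26.0 CPM in males and 12.5 to 20.3 CPM in females, and CG7298 at 4.12 to 9.03 CPM in males and 55.0 to 160.5 CPM in females.

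The size of the change of CG10725 differed between the sexes. Between 28 and 18 °C its log2 fold change was -1.20 in males (SE 0.30), a 2.30-fold lower level, and -3.13 in females (SE 0.28), an 8.73-fold lower level. The male change minus the female change was 1.92 (SE 0.39). In males the log2 fold change was -0.48 for 28 against 24 °C and -0.73 for 24 against 18 °C. In females these were -2.92 and -0.21, so most of the female change lay between 24 and 28 °C. These values led to the choice of the gene and are given without a test. In log2 units, males minus females gave -1.43 at 18 °C, -1.95 at 24 °C and 0.49 at 28 °C, with a 95% interval of -0.09 to 1.07 for the difference at 28 °C. The lowest male library at 28 °C (20.6 CPM) was just above the highest female library (20.3 CPM), and 38.9% of all tested features were higher in males without overlap at that temperature.

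CG7298 moved in opposite directions in the 2 sexes. The 4 male libraries had 11.0, 47.0, 154.7 and 50.3 CPM at 18 °C and 9.78, 6.02, 5.31 and 19.1 CPM at 24 °C, and the 3 at 28 °C had 7.63, 4.12 and 9.03 CPM. The 4 female libraries had 16.8, 44.6, 33.1 and 13.2 CPM at 18 °C, 47.3, 18.5, 33.4 and 34.7 CPM at 24 °C, and 55.0, 159.7, 122 and 160.5 CPM at 28 °C. All male libraries at 28 °C lay below those at 18 °C, and all female libraries at 28 °C lay above those at 18 and 24 °C. Libraries at 28 and 18 °C that do not overlap in these directions were found for 29.1% of tested features in males (lower at 28 °C) and for 23.4% in females (higher at 28 °C), and 18.3% of features were higher without overlap at 28 than at 24 °C in females.

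Between 28 and 18 °C the log2 fold change of CG7298 was -3.25 in males (SE 0.70), a 9.51-fold lower level, and 2.21 in females (SE 0.57), a 4.62-fold higher level. The male change minus the female change was -5.46 (SE 0.91). Males had reached their low level by 24 °C, with -2.71 for 24 against 18 °C and -0.54 for 28 against 24 °C, while the female change lay between 24 and 28 °C, with 1.89 for that step and 0.32 for 24 against 18 °C. Males minus females therefore gave 1.29 at 18 °C, -1.73 at 24 °C and -4.17 at 28 °C on the log2 scale. As for CG10725, these differences led to the choice of the gene and were not tested.

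CG7298 varied widely within groups. The highest of the male libraries at 18 °C was 14.1 times the lowest, against 1.58 times for CG10725 in the same libraries. Replicate 3 of the males at 18 °C held the highest value, 154.7 CPM, and without it the male change between 28 and 18 °C was -2.38, the male change between 24 and 18 °C was -1.84 and the difference between the sexes at 18 °C was 0.43 on the log2 scale. The difference of the change between the sexes was then -4.59, and it was between -5.81 and -4.59 whichever single library was left out.

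Averaged over the 3 temperatures, both genes were lower in males than in females. This average was not itself used to choose them. It is built from the same group means, however, so its tests are not fully separate from the choice. The log2 difference was -0.96 for CG10725 (SE 0.16, 95% interval -1.28 to -0.65, adjusted p = 8.06e-06 in edgeR's quasi-likelihood test). It was -1.54 for CG7298 (SE 0.35, 95% interval -2.23 to -0.84, adjusted p = 0.000362 in the same test). Of all tested features, 86.7% were called in this comparison and 39.5% were called lower in males, so a call alone was common. Both differences average over temperatures at which the sexes stood in different orders, and in both genes the mean was higher in males at 1 of the 3 temperatures.

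Ordered by mean CPM with their SD, the groups of CG10725 ran from females at 18 °C (143 ± 31.4, n = 4) and at 24 °C (123 ± 11.5, n = 4) through males at 18 °C (52.8 ± 11.7, n = 4), 24 °C (31.8 ± 15.8, n = 4) and 28 °C (22.9 ± 2.75, n = 3) to females at 28 °C (16.3 ± 3.18, n = 4). Females at 24 °C lay above males at 18 °C without overlap, as for 35.3% of all tested features, and males at 28 °C lay just above females at 28 °C, while the other neighbours in this order overlapped. For CG7298 the order was females at 28 °C (124 ± 49.5, n = 4), males at 18 °C (65.7 ± 61.9, n = 4), females at 24 °C (33.5 ± 11.8, n = 4), females at 18 °C (26.9 ± 14.6, n = 4), males at 24 °C (10.1 ± 6.35, n = 4) and males at 28 °C (6.92 ± 2.53, n = 3). Each group of CG7298 overlapped with the next in this order. Per kilobase of exon, the mean level in males was higher for CG10725 than for CG7298 at each temperature, with 26.2 against 5.23 CPM at 28 °C and 60.3 against 49.7 CPM at 18 °C. In females the order of the 2 genes turned on this per-kilobase scale, with 18.6 CPM for CG10725 and 94.0 CPM for CG7298 at 28 °C, and 163 CPM for CG10725 and 20.3 CPM for CG7298 at 18 °C.

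CG10140 and CG7252 were expressed at far lower levels, with 0.288 to 1.95 and 0.145 to 0.638 CPM per kilobase in the group means. CG10140 was below 0.5 CPM in 8 libraries and CG7252 in 12, so neither passed the filter that asks for this level in every library. Both passed when the minimum was set on their mean level, and their tests come from the fit of those 10896 features. They rest on 1 to 68 counts per library for CG10140 and on 3 to 24 for CG7252.

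CG10140, the close neighbour of CG10725, peaked in females at 24 °C. The male libraries had 0.308, 0.353, 1.09 and 0.949 CPM at 18 °C, 1.29, 0.450, 0.995 and 2.20 CPM at 24 °C, and 1.24, 1.07 and 0.667 CPM at 28 °C. The female libraries had 1.07, 0.805, 0.516 and 0.456 CPM at 18 °C, 1.69, 1.48, 1.62 and 2.76 CPM at 24 °C, and 0.346, 0.363, 0.358 and 0.0471 CPM at 28 °C. Female libraries at 28 °C lay below all other female libraries, as for 20.1% of all tested features against 18 °C and 19.9% against 24 °C, and the male groups overlapped throughout.

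CG10140 fell in females between 24 and 28 °C by 2.72 on the log2 scale (SE 0.49, adjusted p = 0.000180 in edgeR's test, lower in 4 of 4 libraries), a change called for 26.1% of the 10896 features and called lower for 14.4%. It was called without any single library as well, with an adjusted p of at most 0.000540. In males the log2 fold change between 28 and 18 °C was 0.55 (95% interval -0.45 to 1.55, adjusted p = 0.414 in edgeR), where 28.4% of features were called. In females it was -1.33 (95% interval -2.37 to -0.28, adjusted p = 0.0461 in edgeR), which did not pass the threshold that 35.9% of the 10896 features passed, and DESeq2 gave -1.51 with an adjusted p of 0.00981. The male change minus the female change was 1.87 (SE 0.74, adjusted p = 0.0586) for 28 against 18 °C and 2.40 (SE 0.69, adjusted p = 0.0279) for 28 against 24 °C in edgeR, so neither difference between the sexes was called, beside 17.9% and 4.17% of the 10896 features. For 28 against 24 °C DESeq2 gave 2.55 with an adjusted p of 0.00594, and edgeR gave 2.86 with an adjusted p of 0.00967 without replicate 4 of the males at 24 °C. At 28 °C males were higher by 1.70 (SE 0.56, adjusted p = 0.00875 in edgeR), as were 35.7% of features, a call that was lost when any of 14 libraries was left out, with an adjusted p of 0.0373 at most.

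CG7252 was low in all groups and highest in males at 18 °C. The male libraries had 0.431, 1.06, 1.31 and 1.07 CPM at 18 °C, 0.579, 1.13, 0.332 and 0.537 CPM at 24 °C, and 0.644, 0.711 and 0.872 CPM at 28 °C. The female libraries had 0.206, 0.127, 0.129 and 0.415 CPM at 18 °C, 0.169, 0.261, 0.692 and 0.527 CPM at 24 °C, and 0.476, 0.318, 0.358 and 0.329 CPM at 28 °C. At 18 and at 28 °C every male library was above every female library, as for 45.8% and 38.9% of all features, while the sexes overlapped at 24 °C.

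CG7252 reached the minimum mean level through the males, since its mean was 0.643 to 0.966 CPM in the male groups and 0.219 to 0.412 CPM in the female groups, so a difference between the sexes in that fit is partly set by the filter. The sexes were therefore compared in edgeR with no filter, over all 11152 features. Averaged over temperatures, CG7252 was then higher in males by 1.14 on the log2 scale (SE 0.26, adjusted p = 0.000318), where 47% of features were called higher. At 18 °C the difference was 1.99 (SE 0.45, adjusted p = 0.000332, with 46.7% of features called higher), at 24 °C it was 0.54 (adjusted p = 0.254) and at 28 °C it was 0.89 (adjusted p = 0.0802). Such calls were thus common, and these differences rest on few counts. With the filter on the mean, no temperature change of CG7252 was called in edgeR. That fit admitted the gene partly through its level in males at 18 °C. Comparisons with that group are therefore also partly set by the filter. Between 28 and 18 °C the log2 fold change was -0.37 in males (95% interval -1.19 to 0.45, adjusted p = 0.513) and 0.74 in females (95% interval -0.25 to 1.73, adjusted p = 0.238), and the male change minus the female change was -1.11 (95% interval -2.39 to 0.18, adjusted p = 0.204). Without replicate 3 of the males at 18 °C, CG7252 no longer reached the minimum mean level. For CG10140 the male minus female difference averaged over temperatures was 0.27 (95% interval -0.28 to 0.82, adjusted p = 0.357), which was not called, beside 86.5% of the 10896 features that were.

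CG14109, which lies beyond CG10140 in the group of neighbours that holds CG10725, gave a further view of this stretch. Its mean level was 93.8, 111 and 71.6 CPM in males at 18, 24 and 28 °C and 33.4, 47.1 and 21.1 CPM in females. It was thus higher in males at each temperature, whereas the mean of CG10725 was higher in males only at 28 °C. Between 28 and 18 °C its log2 fold change was -0.39 in males (adjusted p = 0.0526 in edgeR), and in females it fell by 0.66 on the log2 scale (adjusted p = 0.00102). Between 28 and 24 °C it fell by 0.64 in males (adjusted p = 0.00711) and by 1.16 in females (adjusted p = 6.19e-06), calls of a fall that 7.46% and 15.5% of all features had, and the difference between the sexes was not called (0.52, adjusted p = 0.111). Between 28 and 24 °C the female log2 fold changes of CG10725, CG10140 and CG14109 were -2.92, -2.72 and -1.16. In males they were -0.48, -0.31 and -0.64, beside a median over all tested features of -0.08 in males and 0.02 in females. The male intervals spanned both signs for CG10725 (-1.05 to 0.10) and CG10140 (-1.24 to 0.62). The male value of CG10140 turned to 0.14 without replicate 4 of the males at 24 °C. CG10725 was also chosen for its change with temperature. The share of all features that were negative in both sexes was not counted, so a joint fall of these neighbours was not tested. Between 24 and 18 °C the 3 genes did not share a direction, with log2 fold changes of -0.73 for CG10725, 0.86 for CG10140 and 0.25 for CG14109 in males and -0.21, 1.39 and 0.50 in females.

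Among all tested genes, those whose log2 (CPM + 1) followed that of CG10725 most closely over the 23 libraries were sosie (Pearson r = 0.913), Dsp1, an HMG-box protein that acts on transcription (0.899), CG42565 (0.896), Dbp80, a DEAD-box RNA helicase (0.887), and plum, a cell surface protein of the immunoglobulin family (0.883). sosie had 9.03 CPM in males at 28 °C, against 19.4 CPM in males at 18 °C, and 6.35 CPM in females at 28 °C, against 31.6 CPM in females at 18 °C. Those closest to CG7298 were CG15044 (0.898), the serine protease gene Ser6 (0.867), Npc1b, whose product takes up sterols in the midgut (0.853), the peroxisome gene Pex14 (0.850) and Ag5r2, a member of the antigen 5 family (0.846). Npc1b had 9.34 CPM in males at 28 °C, against 28.1 CPM in males at 18 °C, and 90.7 CPM in females at 28 °C, against 8.26 CPM in females at 18 °C. These correlations mix the groups' means with the spread inside groups, and the genes were picked for them. As deviations from the group means, r with CG10725 was 0.290 for sosie, 0.392 for Dsp1 and 0.362 for Dbp80. It was -0.275 for CG42565 and -0.386 for plum. For the genes closest to CG7298, r of the deviations ran from 0.509 (Ser6) to 0.757 (Npc1b).

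Among 61 further genes for chitin-binding proteins and mucins, 38 were in the table and 25 passed the filter in every library. In males 2 of the 25 rose and 9 fell between 28 and 18 °C, where 10.5% of all tested features rose and 19.5% fell, and in females 6 rose and 1 fell, where 21.8% of all rose and 16.2% fell. The median log2 fold change of the 25 genes was -0.50 in males and 0.37 in females, beside -0.08 and -0.01 over all tested features. The male change was below the female change, by a called difference, for 6 of the 25 and above it for none, where 13.8% and 6.11% of all features were called. The median was thus negative in males and positive in females, as were the changes of CG7298, whereas those of CG10725 were negative in both sexes.

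Named members of this list moved differently. In males the largest called changes were those of CG42397, which fell by 1.96 on the log2 scale (adjusted p = 0.000407), Peritrophin-15b, which fell by 1.59 (adjusted p = 1.13e-05), and CG14607, which rose by 1.43 (adjusted p = 0.00506), all in edgeR. In females they were those of the mucin-related gene Mur18B, which rose by 2.24 (adjusted p = 5.35e-09), obst-B, a gene of the obstructor family of chitin-binding proteins, which fell by 1.71 (adjusted p = 2.03e-06), and the mucin gene Muc68E, which rose by 1.68 (adjusted p = 0.00146). Peritrophin-15b averaged 4.94 ± 0.377 CPM in males at 28 °C (SD, n = 3) and 14.9 ± 2.65 CPM in males at 18 °C (SD, n = 4), against 6.81 ± 1.27 and 6.54 ± 1.72 CPM in females (SD, n = 4 each). Its male change was lower than its female change by 1.65 (adjusted p = 0.000281 for the difference). Mur18B rose in both sexes, by 1.01 in males (adjusted p = 0.000186), and the male change minus the female change was -1.23 (adjusted p = 0.00107).

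Peritrophin-15a, picked out after its values were seen, was the only one of the 25 genes called in opposite directions in the 2 sexes. It averaged 43.2 ± 9.19 CPM in males at 28 °C (SD, n = 3) and 83.8 ± 8.04 CPM in males at 18 °C (SD, n = 4), and 85.6 ± 11.3 CPM in females at 28 °C and 50.5 ± 7.05 CPM in females at 18 °C (SD, n = 4 each). Its log2 fold change was -0.96 in males (adjusted p = 0.000737 in edgeR) and 0.76 in females (adjusted p = 0.00160), and the difference was -1.72 (adjusted p = 9.65e-05). These are the directions of CG7298, at a smaller size. The share of all tested features called in opposite directions in the 2 sexes was not counted. Muc55B (-0.52 in males, 1.49 in females) and Mur29B (-1.47 and 1.28) had the same directions. Muc55B was called in females only and Mur29B in neither sex. Their male minus female differences were called in edgeR, at -2.02 (adjusted p = 6.26e-05) and -2.74 (adjusted p = 0.00721). Muc68E lost its call without replicate 1 of the females at 18 °C or replicate 4 of the females at 28 °C, and CG14607 without replicate 2 of the males at 18 °C or replicate 2 or 3 of the males at 28 °C. Over all alternatives their log2 fold changes were 1.35 to 1.68 for Muc68E and 1.12 to 1.64 for CG14607. Without replicate 2 of the males at 28 °C, 7 instead of 11 of the 25 genes were called in males.

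**Figure D2:**
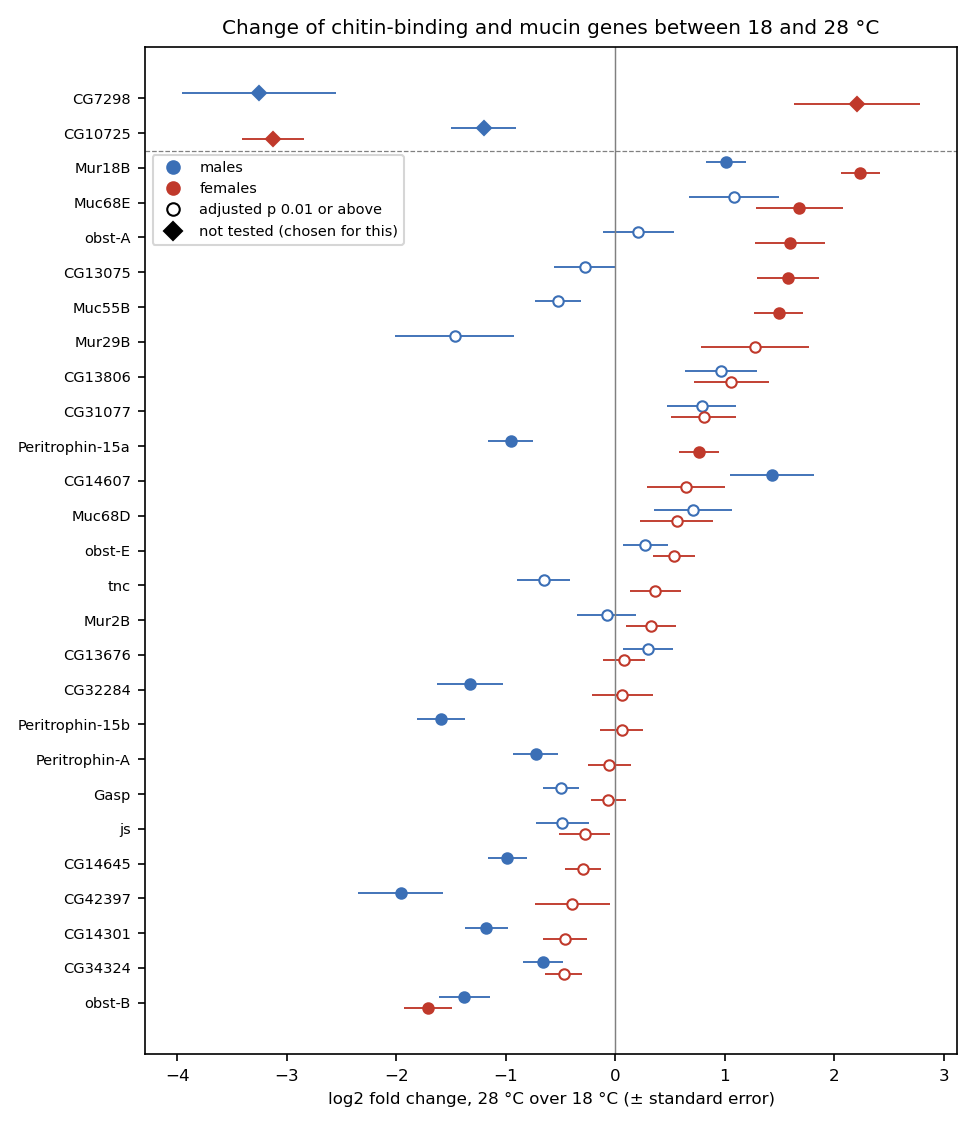
Log2 fold change between 28 and 18 °C with its standard error for 25 chitin-binding and mucin genes (circles) and for CG7298 and CG10725 (diamonds), in males (blue) and females (red). Filled circles passed an adjusted p of 0.01 and open circles did not. The males lie left of the females for most genes, CG7298 is at -3.25 in males and 2.21 in females, and CG10725 at -1.20 and -3.13.

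Chitin itself is made by chitin synthases from UDP-N-acetylglucosamine, and Chs2 is the synthase associated with the gut lining. In males Chs2 averaged 64.3 ± 19.3 CPM at 28 °C (SD, n = 3) and 39.9 ± 14.5 CPM at 18 °C (SD, n = 4), a log2 fold change of 0.69 (adjusted p = 0.0980 in edgeR). In females it rose between 28 and 18 °C by 3.61 on the log2 scale (adjusted p = 1.38e-07 in edgeR), and its mean was 28.6 ± 11.3 CPM in females at 28 °C, against 2.32 ± 1.26 CPM in females at 18 °C (SD, n = 4 each). The male change minus the female change was -2.92 (adjusted p = 0.000212). Of 7 tested genes for chitin synthesis, 1 rose in males, where 10.5% of all tested features rose, and 5 rose in females, where 21.8% rose, and none fell in either sex. Gfat1, which makes the first committed precursor of the pathway, rose by 0.56 in males (adjusted p = 0.00581) and 0.67 in females (adjusted p = 0.000701), and Gnpnat, the glucosamine-phosphate acetyltransferase, rose by 0.56 in females (adjusted p = 0.000187). Their calls depended on which libraries were in the fit. Leaving out a library also set the filter and the TMM factors anew, and these parts were not separated. Without replicate 1 or replicate 4 of the females at 18 °C, 1 instead of 5 of these genes was called in females, and the count of 1 in males ranged from 0 to 4, with 0 without replicate 1, 2 or 4 of the males at 18 °C or replicate 1 or 2 of those at 28 °C.

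Among 17 tested genes for chitinases and chitinase-like proteins, 6 rose in males and 11 in females between 28 and 18 °C, and none fell in either sex, beside 10.5% and 21.8% of all tested features that rose. The median log2 fold changes were 0.36 in males and 0.72 in females, beside -0.08 and -0.01 over all tested features. Between 24 and 18 °C, their median log2 fold change in females was 0.33, beside 0.02 over all tested features. The largest called changes were, in males, those of the chitinase-like growth factors Idgf5 (1.52, adjusted p = 0.000135) and Idgf1 (1.20, adjusted p = 0.00183) and of the chitinase gene Cht5 (1.15, adjusted p = 0.000353), and in females those of Cht9 (2.38, adjusted p = 3.46e-07), Idgf5 (2.08, adjusted p = 1.51e-06) and Idgf1 (2.05, adjusted p = 3.38e-06), all in edgeR. Cht9 did not pass in males (0.36, adjusted p = 0.289), and its male change was lower than its female change by 2.01 (adjusted p = 0.000499). The female count was 7 without replicate 1 or 4 of the females at 18 °C, replicate 1 or 4 of those at 24 °C or replicate 4 of those at 28 °C. Idgf1 in males lost its call without replicate 1 of the males at 28 °C and in a fit of the male libraries alone, with log2 fold changes of 0.84 to 1.48 over all alternatives.

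Chitin deacetylases modify finished chitin. Of 4 tested genes, 2 rose and 1 fell in each sex between 28 and 18 °C, where 30% of all tested features were called in males and 38% in females. Cda9 rose by 2.97 in males (adjusted p = 4.02e-08 in edgeR) and 2.65 in females (adjusted p = 3.17e-08), and the difference between the sexes was 0.32 (adjusted p = 0.502). serp, a deacetylase of the tracheal lining, rose by 1.01 in males (adjusted p = 0.00154) and 1.52 in females (adjusted p = 1.52e-05). Cda5 fell by 0.56 in males (adjusted p = 0.00192) and by 0.74 in females (adjusted p = 7.95e-05). Without replicate 3 of the males at 28 °C, 1 instead of 3 of these genes was called in males, and serp in males also lost its call without replicate 2 of that group.

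**Figure D3:**
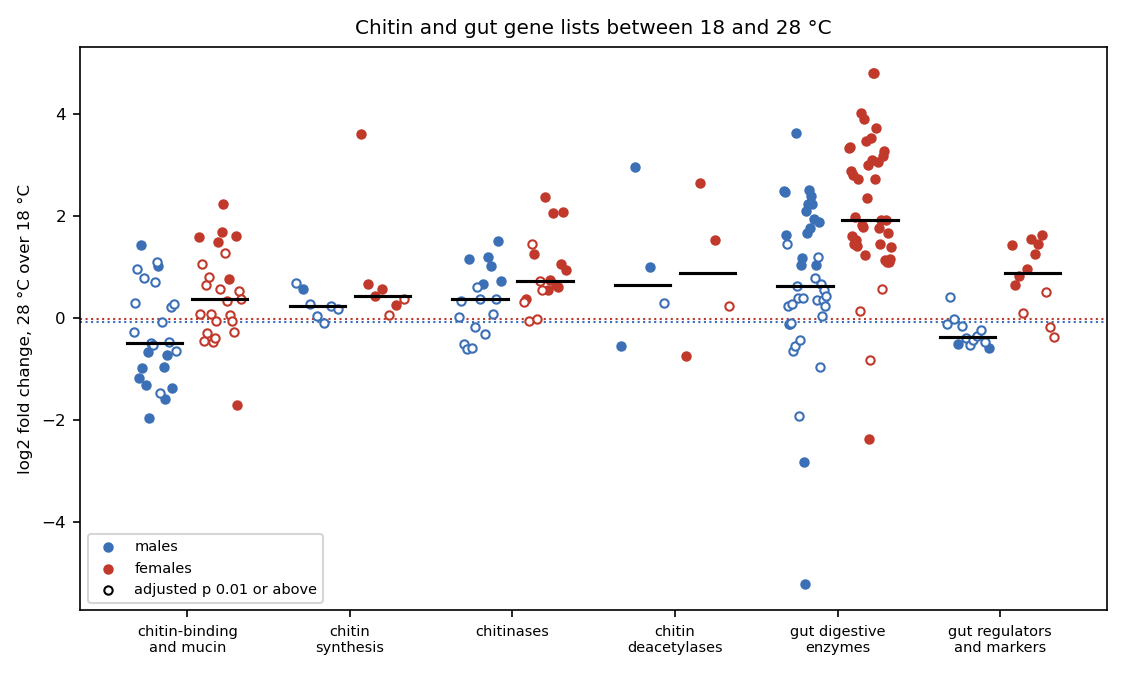
Log2 fold change between 28 and 18 °C of each tested gene in 6 lists, males (blue) left of females (red), with the list median as a black line and the median over all tested features as dotted lines (-0.08 in males and -0.01 in females). Filled points passed an adjusted p of 0.01. Gut digestive genes have medians of 0.62 in males and 1.92 in females, and chitin-binding and mucin genes -0.50 and 0.37.

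Lists of digestive genes and of gut regulators were set beside these genes. They do not stand for the whole gut, and some of their transcripts come from other tissues as well, such as those of cad, which averaged 59.9 to 85.1 CPM in the male groups and 155.1 to 165 CPM in the female groups. Of 41 tested digestive genes, 16 rose and 2 fell in males and 37 rose and 1 fell in females between 28 and 18 °C, with medians of 0.62 and 1.92. Over all tested features 10.5% rose and 19.5% fell in males and 21.8% rose and 16.2% fell in females, so in males the share that fell was below that of all features. The largest were, in males, the lysozyme genes LysX, which fell by 5.24 (adjusted p = 0.000307), and LysP, which fell by 2.82 (adjusted p = 3.65e-06), and the serine protease gene Jon99Ci, which rose by 3.62 (adjusted p = 4.12e-07). In females they were the maltase genes Mal-A4 (4.82, adjusted p = 1.46e-09) and Mal-A3 (4.80, adjusted p = 1.99e-10) and Jon99Ci (4.02, adjusted p = 2.13e-08), which all rose, in edgeR's test. Of 12 regulators and markers of the gut, 2 fell in males, a share close to the 19.5% of all tested features, and 8 rose in females, against 21.8% of all. The male change was below the female change by a called difference for 8 of the 12, against 13.8% of all features. Among genes listed for other tissues, this was so for 3 of 5 tested fat body genes and 3 of 8 Malpighian tubule genes. It was so for 1 of 5 trachea and cuticle genes and 1 of 4 ovary genes. In males cad, a regulator of the hindgut and posterior midgut, fell by 0.51 (adjusted p = 0.000416), and sv fell by 0.59 (adjusted p = 0.00642), a call that was lost with library totals in place of TMM, with the male libraries alone and without any of 10 libraries. In females the enterocyte gene nub rose by 1.64 (adjusted p = 0.000668), the progenitor gene esg by 1.55 (adjusted p = 4.74e-06) and the midgut gene mex1 by 1.46 (adjusted p = 1.54e-05). In males at 28 against 18 °C, esg changed by -0.40 (adjusted p = 0.142) and mex1 by -0.44 (adjusted p = 0.132).

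Between 28 and 18 °C the summed level of the digestive genes moved in the same direction as CG7298 in females. It moved in the opposite direction to CG7298 in males and to CG10725 in both sexes. In males it was 9375 to 16345 CPM at 18 °C, 7936 to 21970 CPM at 24 °C and 22976 to 26339 CPM at 28 °C, and in females 6346 to 8346, 11360 to 18424 and 20225 to 32078 CPM. In either sex every library at 28 °C had a higher sum than every library at 18 °C. CG10725 was lower at 28 °C in both sexes, and CG7298 was lower in males and higher in females. Between 24 and 18 °C the sums of the females did not overlap, whereas CG10725 and CG7298 overlapped in females. In males the sums at 24 and 18 °C overlapped, at a log2 fold change of CG7298 of -2.71. The sum of the 12 gut regulators was 423 to 453 CPM in males at 28 °C and 409 to 587 CPM in males at 18 °C, and 423 to 500 CPM in females at 28 °C and 306 to 375 CPM in females at 18 °C. In RNA from whole flies, fewer gut cells and less of a transcript per gut cell cannot be told apart.

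Within groups, CG10725 and CG7298 were compared with this sum and with each other, as deviations of log2 (CPM + 1) from the group means over 23 libraries (3 relations, permutation tests within groups). For CG10725 and the digestive sum, Pearson's r was 0.695 (p = 0.0216, adjusted p = 0.0647) and Spearman's rho 0.599 (p = 0.0130, adjusted p = 0.0391). The library with the lowest CG10725 level among males at 24 °C (12.2 CPM) also had the lowest sum in that group (7936 CPM), and r was 0.469 without replicates 1 and 4 of the males at 24 °C. For CG7298 and the sum, r was 0.314 (p = 0.221, adjusted p = 0.221) and rho 0.253 (p = 0.307, adjusted p = 0.307), with r = 0.0812 without replicates 1 and 3 of the males at 18 °C, of which replicate 3 had both the highest CG7298 level (154.7 CPM) and the highest sum (16345 CPM) of its group. For CG10725 and CG7298, r was 0.319 (p = 0.177, adjusted p = 0.221) and rho 0.386 (p = 0.115, adjusted p = 0.172), with r = 0.381 without replicates 1 and 4 of the males at 24 °C.

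**Figure D4:**
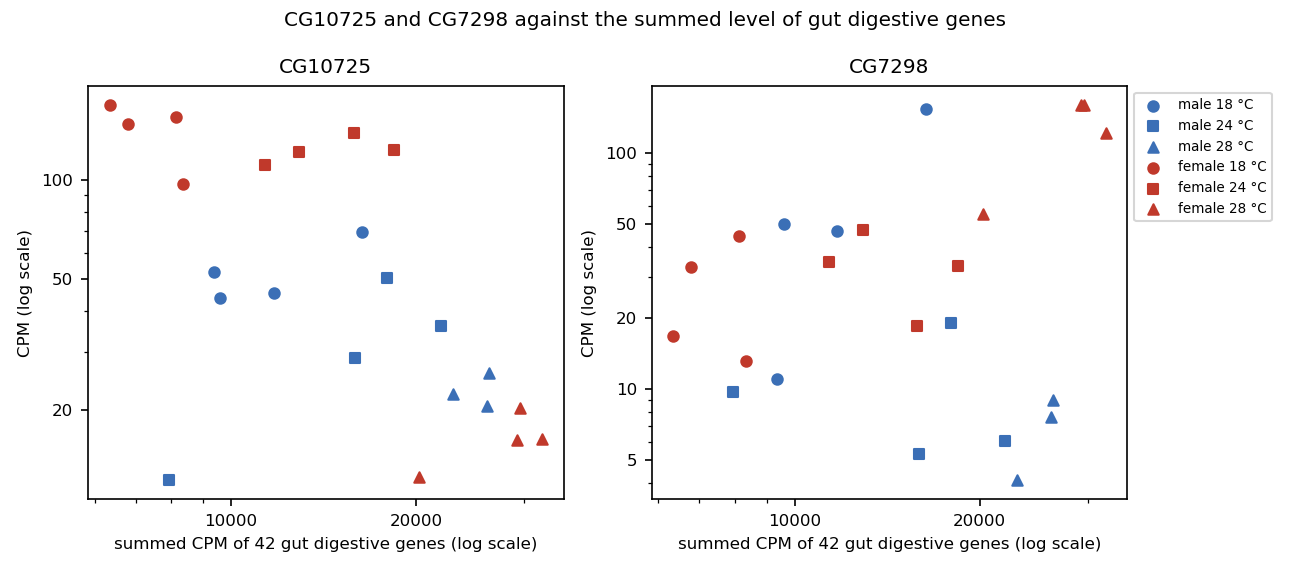
CPM of CG10725 and CG7298 in each library against the summed CPM of 42 gut digestive genes, both on log scales, with males in blue, females in red and a symbol for each temperature. Libraries at 28 °C have sums of 20225 CPM or more, where CG10725 is at 12.5 to 26.0 CPM and CG7298 at 4.12 to 9.03 CPM in males and 55.0 to 160.5 CPM in females.

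The scale of these comparisons depends on the scaling between libraries. The median change of all tested features between 28 and 18 °C in females was -0.01 with TMM, -0.15 with DESeq2's size factors and -0.14 with library totals, and the median male change minus female change was -0.14, 0.06 and 0.08. At 18 °C the median male minus female difference was 0.22, 0.07 and 0.04. The directions given above for CG10725 and CG7298 were the same under all 3 scalings.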

How the data were processed

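Poly-A RNA of 23 whole-fly pools was sequenced (BGISEQ-500, paired reads). Low-quality reads were removed by the authors with SOAPnuke. The authors predicted transcripts with HISAT and StringTie, aligned reads with Bowtie2 and deposited RSEM expected counts per gene, without normalization; 23.2% of the values were not whole. The submitters' processing notes name dm6, and tool versions are not given in the sources used here. The smallest value in the table was 0.09, so features at 0 in a library may be missing from it.

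Symbols were updated by gene ID for 11073 of 11152 features. Counts were rounded, filtered (0.5 CPM on library totals in each library, 9698 features, or on the mean, 10896), scaled with TMM and tested with edgeR 4.0.16 in R 4.3.3 (glmQLFit and glmQLFTest, 6 group means, all 23 libraries, Benjamini-Hochberg, threshold 0.01). The common biological coefficient of variation was 0.141. The filter on the mean served CG10140 and CG7252, except for the sex differences of CG7252, which come from a fit with no filter (11152 features), a change made after its values were seen. The method was tested on simulated data. Python 3.11.15, pandas 2.3.3 and matplotlib 3.10.9 were used for positions and figures. Intervals are normal 95% intervals from the fit. Permutation tests used 100000 resamples. Replicates are pools labelled as biological replicates, and no 2 libraries were identical (highest correlation 0.996).

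The genes and the gene lists, which were compiled by symbol from general knowledge, were chosen with earlier results of these data known. Named genes are the 7 genes, their nearest neighbours, the 5 genes most correlated with CG10725 and with CG7298, and up to 3 called genes with the largest change per list and sex. Alternatives were DESeq2 1.42.0, library totals, the other filter, no filter, libraries of 1 sex, a slope over temperature, the replicate number as a block, and leaving out each library. A planned search for the chitin-binding sequence pattern was not run, and no protein or promoter sequence was used.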

Additional observations from a re-analysis of the deposited data

Results flagged for a closer look

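In CG10140, 1 library stood far from the others of its group in 2 groups of females. Replicate 4 at 24 °C had 2.76 CPM, with the next at 1.69 CPM, and replicate 4 at 28 °C had 0.0471 CPM, a single count, with the next at 0.346 CPM. Chance gives about 1 such library in 20 groups, and the cause was not tested.

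All libraries of CG7298 at 28 °C lay below those at 18 °C in males, as for 29.1% of all tested features. In females all lay above those at 18 °C, as for 23.4%. The male change minus the female change was -5.46 on the log2 scale, and this difference was not tested because it led to the choice of the gene. Among the genes of the chitin and gut lists named for the size of their change in 1 sex, the difference between the sexes was called for Mur18B (-1.23, adjusted p = 0.00107), Peritrophin-15b (-1.65, adjusted p = 0.000281), Chs2 (-2.92, adjusted p = 0.000212), Cht9 (-2.01, adjusted p = 0.000499), Mal-A4 (-2.30, adjusted p = 0.000726) and Mal-A3 (-2.56, adjusted p = 7.52e-05) in edgeR. It was also called for nub (-2.00, adjusted p = 0.00537), esg (-1.95, adjusted p = 8.17e-05), mex1 (-1.90, adjusted p = 0.000189) and cad (-0.59, adjusted p = 0.00220). In the chitin and gut lists that held any such gene this difference was called for 6 of 25 chitin-binding and mucin genes, 1 of 7 synthesis genes, 3 of 17 chitinases, 14 of 41 digestive genes and 8 of 12 gut regulators, all with a lower male change, beside 20% of all tested features called and 13.8% called with a lower male change. In other tissues it was called with a lower male change for 3 of 5 fat body genes and 3 of 8 Malpighian tubule genes.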

How the results depend on the processing

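CG10725 and CG7298 kept the direction of each change between 28 and 18 °C and of each sex difference under all alternatives run. The difference between the sexes in the change of CG10725 was 1.48 with temperature in degrees as a slope, and 1.83 to 2.35 when single libraries were left out. Of CG10140 and CG7252, 1 instead of 0 was called between 28 and 18 °C in females with DESeq2, and 0 or 1 for the sex difference averaged over temperatures when single libraries were left out, with the filter on the mean that CG7252 reached through its male levels. Values that changed sign were small: CG7252 in females at 28 against 24 °C ran from -0.47 to 0.21 (without replicate 3 of the females at 24 °C) when single libraries were left out, CG10140 in males at 28 against 24 °C from -0.59 to 0.14 (without replicate 4 of the males at 24 °C), and the sex difference of CG10140 at 18 °C from -0.58 to 0.0586, above 0 without replicate 1 (0.0586) or 2 (0.0398) of the males at 18 °C. Called genes for chitin synthesis in males numbered 3 with DESeq2, with library totals and with the filter on the mean, and 0 to 4 without single libraries. Leaving out single libraries gave 1 to 6 called synthesis genes, 7 to 12 chitinases in females, 1 to 3 deacetylases, 7 to 13 chitin-binding and mucin genes and 1 to 3 gut regulators in males, and library totals gave 1 gut regulator in males. The causes were not tested. The main fit did not pair libraries by replicate number. Of 55 same-numbered pairs, 26 deviated together with a correlation above 0.1 (median 0.0915, range -0.446 to 0.652). Pairs with different numbers were not compared, so whether the numbers mark shared conditions was not tested. With the replicate block, 2 synthesis genes were called in males, and the male change minus the female change was 1.96 for CG10725 and -5.21 for CG7298. Depth limits CG10140 and CG7252, which rest on as few as 1 and 3 counts in a library.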

Other observations

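Levels in CPM are shares of all counts, and genes of other tissues moved with temperature as well. The 6 fat body genes in the table summed to 47698 to 56857 CPM in females at 28 °C and 4911 to 10893 CPM in females at 18 °C, and to 1203 to 1868 CPM in males at 28 °C and 886 to 1451 CPM in males at 18 °C. Of 5 tested, 2 rose in males and 5 in females between 28 and 18 °C, where 10.5% and 21.8% of all tested features rose. The larval serum protein gene Lsp1beta rose by 2.80 in males (adjusted p = 0.00195) and 7.04 in females (adjusted p = 1.48e-07), the yolk protein gene Yp1 by 2.31 in males (adjusted p = 0.000472) and 3.10 in females (adjusted p = 1.61e-06), and Yp2 by 2.53 in females (adjusted p = 3.22e-05), all in edgeR. Yp1 lost its call in males without replicate 3 of the males at 28 °C, where its log2 fold change was 1.14 at the lowest over all alternatives. The part of these genes in the results on CG10725 and CG7298 was not tested.

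Of 8 tested Malpighian tubule genes, 2 rose in males and 6 rose and 1 fell in females between 28 and 18 °C, beside 10.5% of all tested features that rose in males and 21.8% that rose and 16.2% that fell in females. The urate oxidase gene Uro rose by 1.59 in males (adjusted p = 0.000632) and 3.10 in females (adjusted p = 1.97e-07), Oat by 1.51 in males (adjusted p = 0.000135), and CG3690 by 1.69 (adjusted p = 4.88e-07) and the transporter gene Nha1 by 0.96 (adjusted p = 5.76e-05) in females. Of 5 genes of trachea and cuticle, 1 rose and 2 fell in males, where 10.5% of all tested features rose and 19.5% fell. In females 1 of the 5 rose, where 21.8% of all tested features rose. The tracheal gene uif rose in both sexes, by 0.91 in males (adjusted p = 6.22e-05) and 0.89 in females (adjusted p = 3.20e-05), and the cuticle genes TwdlT (fell by 1.06, adjusted p = 0.000128) and Cpr62Bb (fell by 0.64, adjusted p = 0.00415) were lower in males at 28 °C than at 18 °C. Cpr62Bb lost its call under 6 alternatives, with library totals, with the male libraries alone and without replicate 1 or 2 of the males at 18 or at 28 °C, and Uro in males lost its call with the male libraries alone. Of 4 ovary genes, 1 was called in males, where 30% of all tested features were called and 19.5% fell. This was bcd, which fell by 1.56 (adjusted p = 0.00213). Its call was lost with the male libraries alone and without replicate 1 of the males at 18 °C or replicate 1 or 2 of those at 28 °C. The 8 ovary genes in the table summed to 16.9 to 20.4 CPM in males at 28 °C and 1965 to 2588 CPM in females at 28 °C. The 1 gene of testis and accessory gland in the table did not pass the filter and had at least 699 CPM in each male library and at most 0.857 CPM in each female library.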
